A study of Oryza sativa with 12 samples.

Results

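The type-A response regulators of the rice cytokinin pathway were followed in roots with and without salt, in a line that overexpresses the AP2/ERF transcription factor OsERF106MZ and in its parent cultivar. Members were chosen by gene identifier as the genes named OsRR1 to OsRR7, OsRR9 and OsRR10, which gave 9 genes. Of these, 7 stood among the 24922 genes that the deposited tables list at both NaCl levels, namely OsRR1 (Os04g0442300), OsRR2 (Os02g0557800), OsRR3 (Os02g0830200), OsRR4 (Os01g0952500), OsRR6 (Os04g0673300), OsRR9 (Os11g0143300) and OsRR10 (Os12g0139400). OsRR5 (Os04g0524300) and OsRR7 (Os07g0449700) were not analysed here. The tables describe each of the 7 genes as an A-type response regulator of cytokinin signalling, and all 7 were thus above whatever minimum the authors set for listing a gene.

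Cytokinins are plant hormones that restrain root elongation and crown root initiation. They are perceived by membrane histidine kinases, which pass a phosphate through histidine phosphotransfer proteins to the response regulators of the nucleus. Type-B regulators bind DNA and activate target genes, among which the type-A genes are early targets. Type-A proteins lack the DNA-binding domain and act as feedback inhibitors of the pathway, so their transcripts are widely read as an output of cytokinin signalling.

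Line OE1 carries OsERF106MZ under the 35S promoter of cauliflower mosaic virus, which is active in most cell types, and was compared with TNG67, the japonica cultivar from which it was made. Seedlings were grown for 7 days, moved for 24 h to medium with 150 or 0 mM NaCl, and their roots were sequenced, which gave OE1 at 150 mM NaCl, TNG67 at 150 mM NaCl, OE1 at 0 mM NaCl and TNG67 at 0 mM NaCl, with 3 libraries in each group. OE1 is 1 transgenic line, and its transgene and its own background cannot be told apart. Each library pooled the belowground tissue of several seedlings. The labels name the tissue as roots, whereas the design text speaks of the terrestrial parts.

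Total reads per library ranged from 16326661 to 22426883, and the correlation of log2 values between replicates ranged from 0.988 to 0.991. OsERF106MZ (Os08g0537900) had 9934 ± 531 normalized counts in OE1 and 723 ± 54.6 in TNG67 at 150 mM NaCl, and 9840 ± 615 in OE1 and 876 ± 112 in TNG67 at 0 mM NaCl (SD, n = 3 each), as the labels say. A normalized count is taken here as the number of reads of a gene divided by a size factor of its library. No transcript length was used, so levels are compared between libraries for 1 gene and not between genes. All 4 root marker genes of transport and root cortex were detected in every library, with summed normalized counts of 21163 to 25448 in OE1 and 11614 to 13759 in TNG67 at 150 mM NaCl, and of 64661 to 66524 in OE1 and 54360 to 65043 in TNG67 at 0 mM NaCl. Of 5 green-shoot markers 4 were tested, and their sum was 132 to 252 in OE1 and 103 to 173 in TNG67 at 150 mM NaCl, against 1729 to 2899 in OE1 and 4666 to 6502 in TNG67 at 0 mM NaCl. The green-shoot sum was thus highest in TNG67 at 0 mM NaCl, the group in which the type-A regulators were also highest, and its part in the results below was not tested.

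The members shared part of a pattern, with differences between genes. Every member had its highest group mean in TNG67 roots without salt, a trait whose share over all genes was not counted. For OsRR3 that mean, 152, was close to the 139 of unsalted OE1. Salt in TNG67 reduced 5 of the 7 more than 2-fold, as it did 9.75% of all genes at an adjusted p below 0.05. In OE1 salt changed none of the 7 by 2-fold. Of all genes 12.5% changed by more than 2-fold in OE1 at that adjusted p, so 0 of 7 is near that share. The counts and tests behind this are given by comparison after the values of each gene.

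OsRR4 showed the pattern most clearly. In roots at 150 mM NaCl it had 533, 650 and 582 normalized counts in OE1 and 441, 447 and 425 in TNG67. Without salt it had 492, 606 and 516 in OE1 and 1060, 931 and 943 in TNG67. The 3 unsalted TNG67 libraries lay well above the other 9, the salted TNG67 libraries were the lowest, and the OE1 libraries of both NaCl levels overlapped between them.

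OsRR9 and OsRR10 are close copies of each other in a duplicated block shared by chromosomes 11 and 12, and in rice plants that lack both genes salt tolerance has been found to be enhanced. OsRR9 had 231, 295 and 242 normalized counts in OE1 and 207, 242 and 169 in TNG67 at 150 mM NaCl, and 320, 320 and 255 in OE1 and 594, 465 and 509 in TNG67 at 0 mM NaCl. OsRR10 had 213, 281 and 295 in OE1 and 202, 303 and 183 in TNG67 at 150 mM NaCl, and 257, 290 and 222 in OE1 and 508, 449 and 457 in TNG67 at 0 mM NaCl. For both genes the unsalted TNG67 libraries stood apart. The other 3 groups overlapped for OsRR10, and for OsRR9 salted OE1 overlapped with unsalted OE1 on one side and with salted TNG67 on the other. Reads of such copies may be split by the aligner in ways that the sources do not describe, so their sum was also taken. It was 519 ± 68.2 in OE1 and 435 ± 99.1 in TNG67 at 150 mM NaCl, and 555 ± 69.3 in OE1 and 995 ± 96.9 in TNG67 at 0 mM NaCl (SD, n = 3 each). OsRR9 supplied between 44.4% and 55.4% of the pair in each of the 12 libraries. A share near this level could also come from dividing shared reads between the copies, so whether both genes changed cannot be told from it, and the 2 genes are not independent of each other in the counts below.

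OsRR2, which is repressed by the homeobox factor WOX11 in emerging crown roots of rice, was the member with the most reads, at 407 to 1444 per library. It had 636, 615 and 578 normalized counts in OE1 and 364, 544 and 388 in TNG67 at 150 mM NaCl, and 1014, 1091 and 977 in OE1 and 1558, 1507 and 1549 in TNG67 at 0 mM NaCl. No group overlapped with another, and the order was unsalted TNG67, unsalted OE1, salted OE1 and salted TNG67. Replicate 2 of salted TNG67, at 544, came closest to the salted OE1 libraries.

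OsRR3 followed the same order of groups with another spacing. It had 117, 101 and 123 normalized counts in OE1 and 64.0, 52.7 and 55.3 in TNG67 at 150 mM NaCl, and 129, 146 and 142 in OE1 and 152.2, 152.6 and 152.3 in TNG67 at 0 mM NaCl. Only the salted TNG67 libraries were far from the rest, with the other 3 groups adjoining without overlap. The unsalted TNG67 libraries, with 136 to 144 reads each, agreed to a coefficient of variation of 0.148%, where counting alone would give about 8.43%, so their closeness is not a measure of the gene's precision.

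OsRR1, which is activated by the AP2/ERF protein CRL5 during crown root initiation in rice, rested on the fewest reads, at 32 to 74 per library. It had 40.0, 66.3 and 35.3 normalized counts in OE1 and 35.8, 45.9 and 57.2 in TNG67 at 150 mM NaCl, and 35.3, 42.4 and 43.8 in OE1 and 82.8, 64.7 and 76.2 in TNG67 at 0 mM NaCl. Unsalted TNG67 was again highest, but replicate 2 of salted OE1 reached into its range, and the other 3 groups overlapped.

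OsRR6, whose overexpression in rice lowers the sensitivity to cytokinin, had 105, 127 and 144 normalized counts in OE1 and 105, 179 and 142 in TNG67 at 150 mM NaCl. Without salt it had 152, 197 and 131 in OE1 and 225, 219 and 238 in TNG67. The unsalted TNG67 libraries lay above all others, and the ranges of the other 3 groups overlapped.

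**Figure D1:**
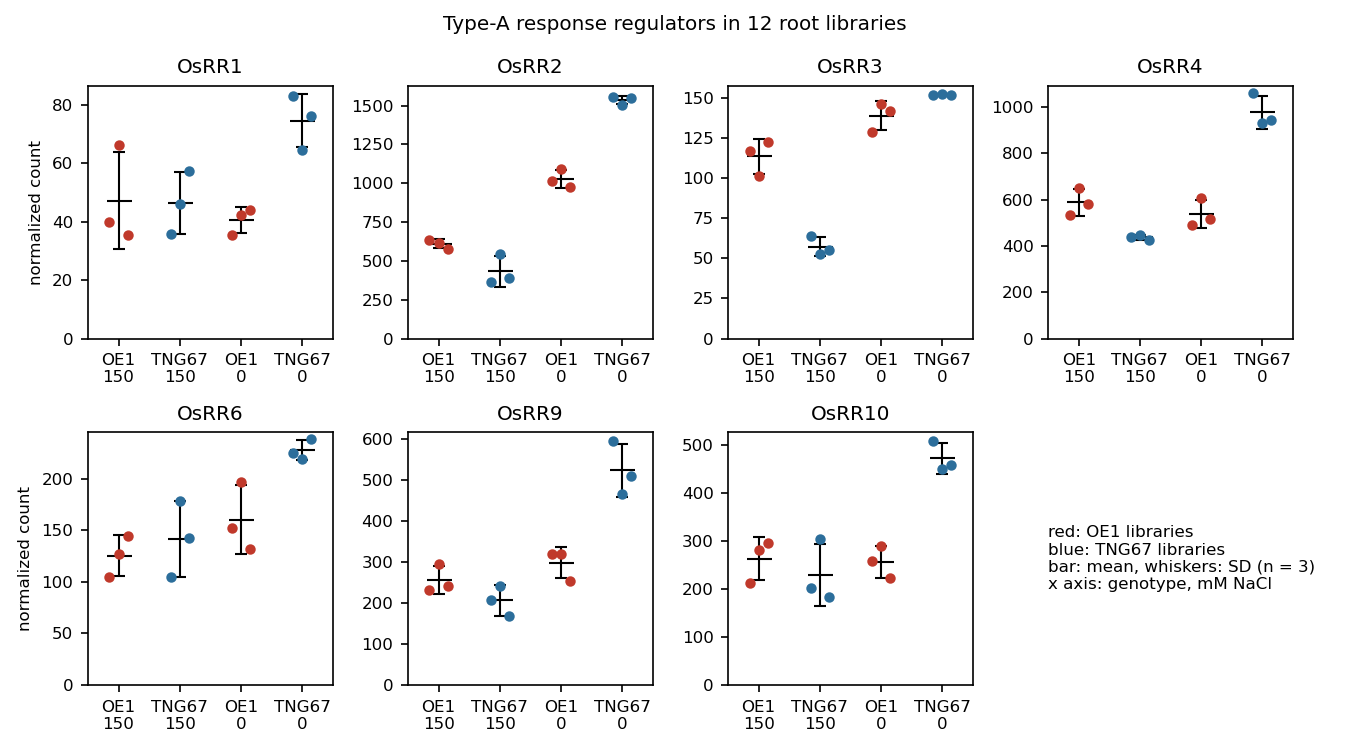
Normalized counts of the 7 type-A regulators (vertical axis, from 0) in each library, with groups along the horizontal axis named by genotype and mM NaCl; points are libraries, bars are means and whiskers are SD (n = 3). The 3 TNG67 libraries at 0 mM NaCl are the highest points for OsRR2, OsRR3, OsRR4, OsRR6, OsRR9 and OsRR10, while for OsRR1 1 OE1 library at 150 mM NaCl reaches 66.3, above the lowest of them.

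The first comparison asked what salt did to these genes in the parent cultivar. In TNG67 roots, 5 of the 7 members were lower at 150 than at 0 mM NaCl by more than 2-fold with an adjusted p below 0.05, where 9.75% of all 24922 genes tested were called lower. The log2 fold change was -1.85 ± 0.11 for OsRR2 (SE, limma adjusted p = 4.07e-10), -1.40 ± 0.14 for OsRR3 (adjusted p = 1.02e-07) and -1.35 ± 0.14 for OsRR9 (adjusted p = 2.26e-07). For OsRR4 it was -1.16 ± 0.09 (adjusted p = 4.89e-09), and for OsRR10 -1.07 ± 0.17 (adjusted p = 5.73e-05). OsRR10 dropped below the 2-fold limit when replicate 1 of salted TNG67 was left out (-0.996) or replicate 3 (-0.93). These are bulk roots, in which fewer cells of a type and less RNA per cell cannot be told apart.

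OsRR6 and OsRR1 were lower by less than 2-fold, at -0.71 ± 0.18 (limma adjusted p = 0.00303) and -0.69 ± 0.24 (adjusted p = 0.0213). With them, all 7 members passed on the adjusted p alone in the lower direction, as did 27.2% of all genes. OsRR1 was lost from that count without replicate 1 of salted TNG67 (adjusted p = 0.109), replicate 1 of unsalted TNG67 (0.0763) or replicate 3 of unsalted TNG67 (0.0516). The salted and unsalted libraries did not overlap for any of the 7 members, which held in the lower direction for 30.0% of all genes. The median of the members was -1.16, and that of all genes tested was 0. The tissue markers fell in the same libraries, 4 of 4 root markers and 4 of 4 green-shoot markers being called lower, with log2 fold changes from -3.01 (RCc3) to -1.32 in the root set and from -7.05 to -4.55 in the green-shoot set. Their summed counts were 12448 ± 1150 at 150 mM and 60381 ± 5469 at 0 mM NaCl for root, and 137 ± 34.8 at 150 mM and 5379 ± 984 at 0 mM NaCl for green shoot (SD, n = 3 each), and the part of this in the members' values was not tested.

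In OE1 roots the same comparison gave smaller values. Between 150 and 0 mM NaCl, 0 of the 7 members were called by limma, as by edgeR and by DESeq2, where limma called 12.5% of all genes in either direction. OsRR2 alone passed on the adjusted p, at a log2 fold change of -0.75 ± 0.11 (SE, limma adjusted p = 3.35e-05), where 19.2% of all genes did so in the lower direction. It was also the only member with an unadjusted p below 0.05, a looser rule that more genes passed. OsRR3, with a limma p of 0.0507, ranked 11494 by p among the 24922 genes. For the other members the 95% intervals bounded the change. They ran from -0.58 to 0.00 for OsRR3, from -0.73 to 0.04 for OsRR6 and from -0.51 to 0.08 for OsRR9. The interval of OsRR10 ran from -0.33 to 0.39, that of OsRR4 from -0.06 to 0.32, and that of OsRR1 from -0.34 to 0.68. A change of 2-fold lies outside every one of these 6 intervals. Groups did not overlap for OsRR2 and OsRR3, both lower with salt, where this held for 24.3% of all genes, and the median was -0.22 for the members and 0.01 for all genes. Of the tissue markers, 3 of 4 root and 4 of 4 green-shoot genes were called lower with salt in OE1 too, at log2 fold changes from -1.80 to -0.53 over the root set and from -4.23 to -3.18 over the green-shoot set.

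Without salt, the OE1 roots had less of most of these transcripts than TNG67, though OsRR3 differed little. A lower level passed for 6 of the 7 members on the adjusted p alone, where 12.5% of all genes did. No change reached 2-fold, so 0 members were called by limma, as by edgeR and by DESeq2. By that rule limma called 5.26% of all genes in either direction. At an unadjusted p below 0.05, a looser rule, 6 of the 7 members were lower. Many genes passed it, since the green-shoot marker Os12g0291100, with a limma p of 0.0452, ranked only 8321 by p among the 24922 genes. The log2 fold change of OE1 over TNG67 was -0.88 ± 0.17 for OsRR10 (SE, limma adjusted p = 0.00154), -0.86 ± 0.09 for OsRR4 (adjusted p = 2.65e-06) and -0.86 ± 0.24 for OsRR1 (adjusted p = 0.0153). It was -0.81 ± 0.14 for OsRR9 (adjusted p = 0.000463), -0.58 ± 0.11 for OsRR2 (adjusted p = 0.00117) and -0.52 ± 0.18 for OsRR6 (adjusted p = 0.0481). OsRR3 had -0.13, with a 95% interval from -0.42 to 0.16.

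The OsRR6 and OsRR1 values were the least stable of these. OsRR6 exceeded an adjusted p of 0.05 with edgeR (0.0558), with a pseudocount of 0.1 (0.0517) and in 7 of the 12 fits that left out a library, among them replicate 3 of unsalted OE1 (0.184), replicate 1 of unsalted OE1 (0.129) and replicates 1, 2 and 3 of unsalted TNG67 (0.106, 0.0893 and 0.117), and also replicate 3 of salted TNG67 (0.0555) and replicate 2 of salted OE1 (0.0590). OsRR1 did so without replicate 1 of unsalted OE1 or of unsalted TNG67 (0.0649 in each). For all 7 members the 3 OE1 libraries lay below the 3 TNG67 libraries, as for 21.4% of all genes. The median was -0.81 for the members and -0.02 for all genes. The summed green-shoot markers were 2437 ± 622 in OE1 and 5379 ± 984 in TNG67 in these libraries (SD, n = 3 each), lower in OE1 like the members, and the part of this difference in the result was not tested.

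Under salt the direction turned for OsRR2 and OsRR4, while OsRR3 had not passed without salt. At 150 mM NaCl, 3 of the 7 were higher in OE1 than in TNG67 on the adjusted p alone, where 11.2% of all genes were. OsRR3 had a log2 fold change of 0.98 ± 0.14 (SE, limma adjusted p = 4.67e-05), OsRR2 of 0.52 ± 0.11 (adjusted p = 0.00228) and OsRR4 of 0.42 ± 0.09 (adjusted p = 0.00221). These were also the 3 members whose OE1 libraries all lay above the TNG67 libraries, as did those of 18.6% of all genes. OsRR3 stayed just under 2-fold, so 0 members were called by limma, as by edgeR and by DESeq2. By that rule limma called 5.93% of all genes in either direction. At an unadjusted p below 0.05, a looser rule, 4 of the 7 members were higher. Many genes passed it, since OsRR9, with a limma p of 0.0353, ranked only 8335 by p among the 24922 genes. OsRR3 passed the 2-fold limit without replicate 1 of salted TNG67 and without replicate 2 of salted OE1, at 1.06 and 1.05.

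The other members did not pass at 150 mM NaCl, with 95% intervals from 0.02 to 0.61 for OsRR9, -0.14 to 0.58 for OsRR10, -0.51 to 0.51 for OsRR1 and -0.54 to 0.23 for OsRR6. Replicate 2 of salted TNG67 was the highest of its group for OsRR2, OsRR4, OsRR6, OsRR9 and OsRR10, and without it OsRR9 and OsRR10 passed on the adjusted p, at 0.0359 and 0.0370. The median was 0.32 for the members and 0.00 for all genes. Summed green-shoot markers were 195 ± 60.3 in OE1 and 137 ± 34.8 in TNG67 (SD, n = 3 each), with overlapping ranges, and summed root markers were 22636 ± 2436 in OE1 and 12448 ± 1150 in TNG67, without overlap, whose part was not tested.

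**Figure D2:**
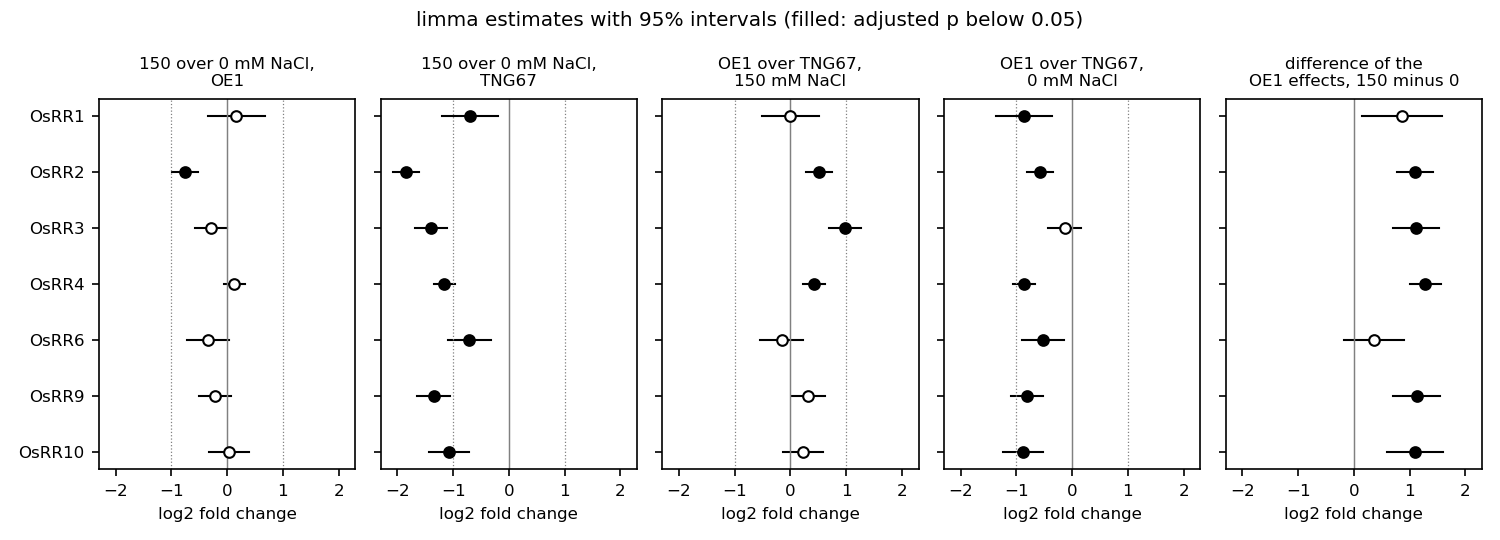
Log2 fold changes of the 7 members (horizontal axis) with 95% intervals from limma, in the 4 comparisons of pairs of groups and in the difference of the OE1 effects; filled points have an adjusted p below 0.05, dotted lines mark 2-fold. Salt effects in OE1 lie between -0.75 and 0.17 and those in TNG67 between -1.85 and -0.69. OE1 effects range from -0.16 up to 0.98 with salt and from -0.88 up to -0.13 without it.

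Whether the effect of OE1 differed between the NaCl levels was tested directly, as the log2 fold change of OE1 over TNG67 at 150 mM NaCl minus that at 0 mM NaCl. The same number is the salt effect in OE1 minus the salt effect in TNG67. This difference was above 0 with an adjusted p below 0.05 for 5 of the 7 members, where 5.20% of all genes passed in that direction and 11.4% in either. It was 1.28 ± 0.13 for OsRR4 (SE, limma adjusted p = 1.68e-05), which ranked 13 by p among the 24922 genes. OsRR9 had 1.13 ± 0.20 (adjusted p = 0.00186), OsRR3 1.11 ± 0.20 (adjusted p = 0.00189), OsRR10 1.10 ± 0.24 (adjusted p = 0.00903) and OsRR2 1.10 ± 0.16 (adjusted p = 0.000452).

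OsRR1 and OsRR6 did not pass this test. OsRR1 had 0.86 with a 95% interval from 0.14 to 1.58 (limma adjusted p = 0.113), and OsRR6 had 0.37 with an interval from -0.18 to 0.91 (adjusted p = 0.397). The estimate was above 0 for all 7, with a median of 1.10, against 0.00 over all genes. It was also above 0 for all 8 tissue markers, from 0.41 to 1.54 in the root set, where RCc3 was called (1.54, adjusted p = 7.17e-05), and from 1.17 to 3.71 in the green-shoot set, where the chlorophyll a/b binding gene Os01g0600900 (1.79, adjusted p = 0.00313) and the Rubisco small subunit gene Os12g0291100 (3.71, adjusted p = 0.00527) were called. Os12g0291100 had 0 to 5 reads in salted TNG67. The part of these tissue markers in the members' differences was not tested. The number of members that passed was 5 in each of the 12 fits that left out a library, and also 5 with edgeR and with DESeq2 on recovered reads. The 4 comparisons of pairs of groups share libraries, each group entering 2 of them, so a member's values in them are not independent of each other or of this difference.

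The difference was made up unlike in the 5 genes. For OsRR3 the OE1 effect was 0.98 with salt and -0.13 without, so that most of it arose under salt. For OsRR9 and OsRR10 it was 0.32 and 0.22 with salt, which did not pass, and -0.81 and -0.88 without salt, where most of it arose. OsRR4 and OsRR2 passed at both levels with opposite signs, at 0.42 and 0.52 with salt and at -0.86 and -0.58 without.

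Taken as a sum over the 7 members, normalized counts were 2003 ± 131 in OE1 and 1551 ± 228 in TNG67 at 150 mM NaCl, and 2460 ± 209 in OE1 and 3965 ± 198 in TNG67 at 0 mM NaCl (SD, n = 3 each). No 2 groups of this sum overlapped. The sum leans on the members with the highest counts, OsRR2 and OsRR4, which had 1538 and 978 in unsalted TNG67. OsRR2 by itself already showed no overlap between groups. Exact permutation tests of single members, with 3 libraries against 3, cannot give a p below 0.1, which is the value of each comparison without overlap.

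**Figure D3:**
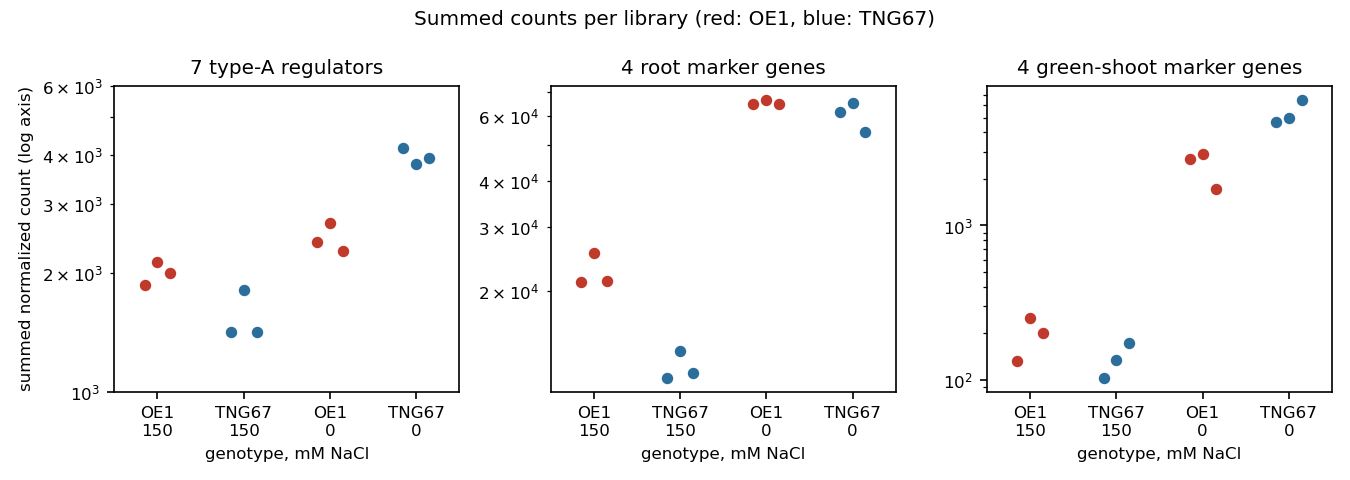
Summed normalized counts per library on logarithmic axes, for the 7 members, 4 root marker genes and 4 green-shoot marker genes, with groups named by genotype and mM NaCl; each point is 1 library. The member sum is 2003 in OE1 and 1551 in TNG67 at 150 mM NaCl and 2460 in OE1 and 3965 in TNG67 at 0 mM NaCl on average, and the green-shoot sum is highest in the same group as the member sum.

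The members varied together to different degrees. Over the 12 libraries, the Pearson correlation of log2 values was 0.236 to 0.937 in the 21 pairs of members, with a median of 0.761. These values are a description, since the libraries share 4 group means. After the group means were taken out, the correlations ranged from -0.635 to 0.792, the highest being that of OsRR9 with OsRR10. Against the mean of the other members, OsRR9 had 0.966, OsRR4 0.945, OsRR10 0.917 and OsRR2 0.899. OsRR6 had 0.797, OsRR3 0.651 and OsRR1 0.639, which puts the gene with the other spacing of groups and the gene with the fewest reads at the low end.

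Genes outside the family with the most similar pattern were sought among 22182 genes with a mean of at least 20 normalized counts, by their correlation over the 12 libraries with the mean of the standardised members. The 5 closest were Os05g0493600 (0.964, described as similar to an indole-3-acetate glucosyltransferase), Os06g0199500 (0.961, a halotolerance protein that binds flavin mononucleotide), Os10g0376200 (0.960, a leucine-rich repeat protein), Os09g0474100 (0.960, similar to the TA1 protein) and Os03g0188500 (0.958, a protein of the glutelin family). Os03g0188500 had 220 ± 19.3 normalized counts in OE1 and 144 ± 11.7 in TNG67 at 150 mM NaCl, and 358 ± 75.6 in OE1 and 793 ± 171 in TNG67 at 0 mM NaCl (SD, n = 3 each). A correlation of at least 0.9 was reached by 123 genes, or 0.555% of those searched.

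Other genes of the cytokinin pathway were taken by their descriptions, which found 42 genes, of which 38 were listed at both NaCl levels. The median of the 38 did not follow that of the members. Between 150 and 0 mM NaCl, limma called 3 of the 38 higher and 5 lower in OE1, and 2 higher and 7 lower in TNG67. Of all genes it called 12.5% in either direction in OE1. In TNG67 it called 9.75% of all genes lower, a share that compares with the 7 lower alone and not with the 2 higher. Between OE1 and TNG67 it called 1 higher and 0 lower at 150 mM NaCl, where it called 5.93% of all genes in either direction. At an unadjusted p below 0.05, 7 were higher and 10 lower there, but such a p was common over all genes. OsRR9, with a limma p of 0.0353 at 150 mM NaCl, ranked only 8335 by p among the 24922 genes. At 0 mM NaCl limma called 0 of the 38 and 5.26% of all genes. At an unadjusted p below 0.05, 5 of the 38 were higher and 8 lower, and such a p was again common over all genes. The green-shoot marker Os12g0291100, with a limma p of 0.0452 at 0 mM NaCl, ranked 8321 by p among the 24922. The difference of the OE1 effects was called above 0 for 6 and below 0 for 3. Of all genes 5.20% were called above 0 and 11.4% in either direction, and whether the 38 exceed these shares was not tested. The 6 above 0 include Os02g0700300, a regulator of the phosphate starvation response. The median of the 38 in this difference was -0.04 where the members had 1.10.

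No change reached 2-fold in the 5 genes described as B-type, a class that acts upstream of the type-A genes. For the 5 genes described as B-type (Os01g0904700, Os02g0182100, Os02g0796500, Os03g0224200 and Os06g0183100), the log2 fold changes ranged from -0.24 to 0.25 for salt in OE1 and from -0.22 to 0.45 for salt in TNG67, and from -0.29 to 0.35 for OE1 over TNG67 at 150 mM NaCl and from -0.07 to 0.25 at 0 mM NaCl. The difference of the OE1 effects lay between -0.27 and 0.15 in them, with an adjusted p of at least 0.0824. On the adjusted p alone, 2 of the 5 passed for salt in OE1, 1 for salt in TNG67, 1 for OE1 over TNG67 with salt and 2 without. Os03g0766500, described as similar to the Arabidopsis type-B regulator ARR1 and low in reads, fell with salt in both genotypes, at -1.44 ± 0.27 in OE1 and -1.20 ± 0.27 in TNG67 (SE, limma adjusted p = 0.000278 and 0.000931). Os04g0494400, described as similar to a maize type-A regulator and not a member, had 754 ± 21.1 normalized counts in OE1 and 788 ± 73.0 in TNG67 at 150 mM NaCl, and 707 ± 34.6 in OE1 and 796 ± 45.6 in TNG67 at 0 mM NaCl (SD, n = 3 each), and did not pass in any comparison. Os02g0700300, a regulator of the phosphate starvation response that the description search also took into this list, was the list's 1 gene called higher with salt in OE1, at 1.12 ± 0.22, and the list's 1 gene called in the difference of the OE1 effects, at 1.07 ± 0.31 (adjusted p = 0.000454 and 0.0319).

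Among the receptors, HK4 (Os03g0717700), a cytokinin receptor kinase, had a difference of the OE1 effects in the same direction as the members. It had 1336, 1194 and 1253 normalized counts in OE1 and 787, 995 and 689 in TNG67 at 150 mM NaCl, and 1333, 1449 and 1184 in OE1 and 1523, 1390 and 1596 in TNG67 at 0 mM NaCl, and the difference was 0.82 ± 0.16 (SE, limma adjusted p = 0.00455). The salted TNG67 libraries were the lowest and overlapped with no other group. HK3 (Os01g0923700), also a receptor kinase, ran the other way, with 8548 ± 71.5 in OE1 and 9997 ± 581 in TNG67 at 150 mM NaCl, and 7147 ± 219 in OE1 and 5114 ± 265 in TNG67 at 0 mM NaCl (SD, n = 3 each). Its difference of the OE1 effects was -0.71 ± 0.08 (adjusted p = 6.75e-05). A further histidine kinase, Os06g0654300, fell with salt in TNG67, at -1.10 ± 0.09 (adjusted p = 5.16e-09), and had a difference of 0.49 ± 0.12 (adjusted p = 0.0155). The histidine phosphotransfer protein AHP2 (Os09g0567400) had a difference of -0.39 ± 0.08 (adjusted p = 0.00629).

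Of the genes for synthesis, 5 were tested, 1 with a difference above 0 and 1 below. LOG (Os01g0588900), which releases active cytokinin from its nucleotide, had 726 ± 58.5 normalized counts in OE1 and 1285 ± 111 in TNG67 at 150 mM NaCl, and 575 ± 18.2 in OE1 and 774 ± 48.4 in TNG67 at 0 mM NaCl (SD, n = 3 each), with a difference of the OE1 effects of -0.40 ± 0.11 (SE, limma adjusted p = 0.0303). LOGL6 (Os04g0518800), an enzyme of the same kind, had a difference of 0.85 ± 0.21 (adjusted p = 0.0131). Another of them, LOGL2 (Os02g0628000), was called lower with salt in both genotypes, at -1.54 ± 0.51 in OE1 and -1.82 ± 0.51 in TNG67 (adjusted p = 0.0227 and 0.00556), with only 2 to 32 reads per library.

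The genes for degradation and conjugation went in both directions with salt. The cytokinin oxidase OsCKX4 (Os01g0940000), which is described by its part in crown root formation, rose with salt in both genotypes, by a log2 fold change of 1.33 ± 0.15 in OE1 and 1.45 ± 0.15 in TNG67 (SE, limma adjusted p = 1.40e-06 and 2.53e-07). A pair of other oxidases fell, Os08g0460600 at -1.30 ± 0.11 in OE1 and -1.11 ± 0.11 in TNG67, and Os01g0187600 at -1.55 ± 0.20 in OE1 and -1.69 ± 0.20 in TNG67, with adjusted p of at most 5.66e-06. None of these 3 genes passed in the difference of the OE1 effects, where their values lay between -0.20 and 0.14.

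The cis-zeatin O-glucosyltransferase gene Os04g0556500, whose product converts cis-zeatin to a storage form, was the single pathway gene called between OE1 and TNG67 at 150 mM NaCl. It had 290, 348 and 342 normalized counts in OE1 and 128, 94.7 and 135 in TNG67 at 150 mM NaCl, and 337, 359 and 331 in OE1 and 297, 265 and 253 in TNG67 at 0 mM NaCl. Salted TNG67 was well below the other 3 groups. The log2 fold change of OE1 over TNG67 at 150 mM NaCl was 1.46 ± 0.13 (SE, limma adjusted p = 2.22e-07), that of salt in TNG67 was -1.19 ± 0.13 (adjusted p = 2.82e-07), and the difference of the OE1 effects was 1.12 ± 0.18 (adjusted p = 0.000907). Os04g0565200, described as similar to a cis-zeatin O-glucosyltransferase, was called higher with salt in OE1, at 1.01 ± 0.17 (adjusted p = 0.000108). In TNG67 its salt effect was 0.07 ± 0.17 (adjusted p = 0.744). Its difference of the OE1 effects was 0.93 ± 0.24 (adjusted p = 0.0186). Of the similar cytokinin O-glucosyltransferase genes, Os08g0168700 was called lower with salt in both genotypes, at -1.08 ± 0.32 in OE1 and -1.75 ± 0.32 in TNG67 (adjusted p = 0.0140 and 0.000242). Os07g0486700 was called higher with salt in TNG67, at 1.21 ± 0.24 (adjusted p = 0.000283). Neither Os08g0168700 nor Os07g0486700 passed in the difference (adjusted p = 0.389 and 0.290).

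**Figure D4:**
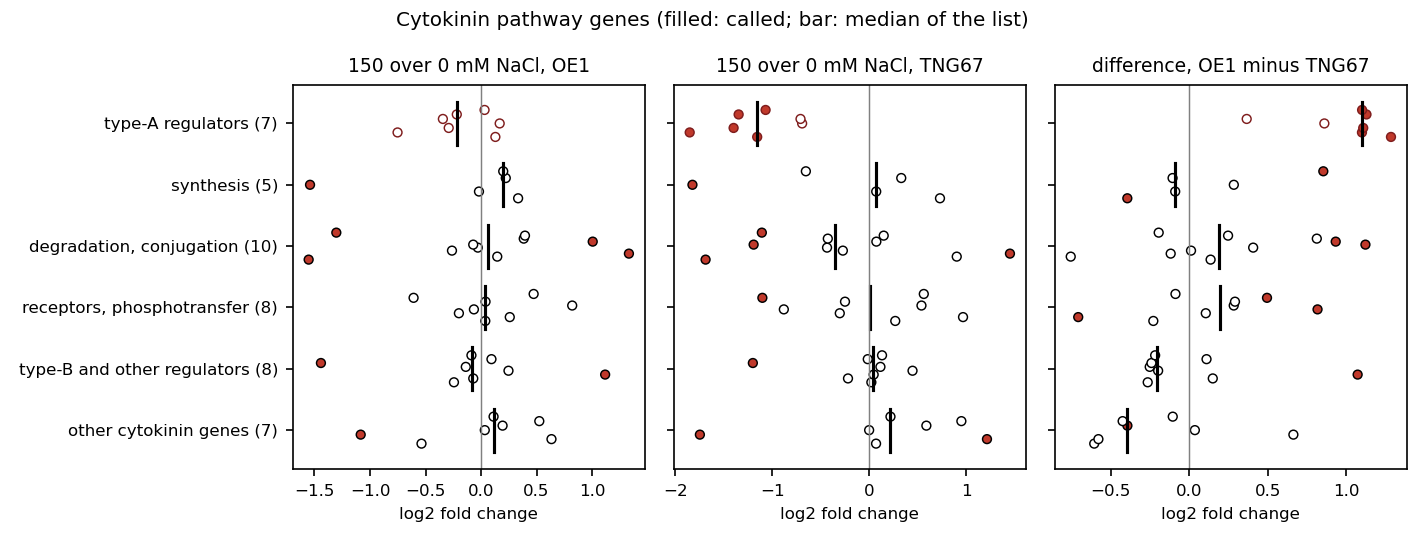
Log2 fold changes (horizontal axis) of the 7 members and of 38 other cytokinin genes in 5 lists, for salt in OE1, for salt in TNG67 and for the difference between these; each point is a gene, filled where called, and bars are medians of a list. The member median is -0.22 in OE1, -1.16 in TNG67 and 1.10 in the difference, while the 5 lists have medians between -0.39 and 0.19 in the difference.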

How the data were processed

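Roots of OE1 and TNG67 at 150 and 0 mM NaCl were sequenced, with 3 libraries in each of 4 groups. The study calls the replicates biological, each a pool of seedlings. Per the labels and the study's methods, the authors trimmed reads with Trimmomatic 0.38 and aligned them to IRGSP-1.0 with HISAT2 2.1.0. The deposited values are a signal, taken here as the read count of each gene divided by a size factor of its library. The source of the size factors is not given, and this form was inferred from the recovery of whole reads described below. The counting tool, its handling of shared reads, its use of strand and the filter on listed genes are not given in the sources used here. Whole reads were recovered from the values to within 0.001 in all 12 libraries, for 3 of which 1 read is worth about 1 so that the recovery rests on that test alone.

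Log2 of the value plus 1 was fitted with limma 3.58.1 (R 4.3.3, trend, robust) on 12 libraries and 24922 genes, with Benjamini-Hochberg adjustment. Genes were called at an adjusted p under 0.05 together with a change of over 1 on the log2 scale, or at the adjusted p alone for the difference of the OE1 effects. Fold changes are on the log2(value + 1) scale and understate changes of low genes. The fit was tested on simulated data. The alternatives were edgeR 4.0.16 and DESeq2 1.42.0 on recovered reads, a pseudocount of 0.1, a mean of at least 20, total-count scaling, 6 libraries, a replicate block, no fold change limit, and each library left out.

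Members, lists and tests were chosen with earlier results of these data known. Named were all members, called pathway genes (at most 4 a list, by size of change) and the 5 genes most like the members. Os04g0565200 was named besides for its likeness to Os04g0556500. Columns of group means by the authors were not used. No sequence was used. RefSeq names (ASM3414082v1) matched 14105 genes.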

Additional observations from a re-analysis of the deposited data

Results flagged for a closer look

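The OE1 effect with salt minus that without, which is also the difference between the salt effects of the 2 genotypes, passed for 5 type-A regulators by limma's test of the difference itself. It was 1.28 for OsRR4, 1.13 for OsRR9, 1.11 for OsRR3, 1.10 for OsRR10 and 1.10 for OsRR2 on the log2 scale, with adjusted p between 1.68e-05 and 0.00903. The sign was positive in each. Over all genes 5.20% passed in this direction and 11.4% in either. The difference was also positive for all 8 tissue markers and called for 3 of them, RCc3 of roots (1.54) and the green-shoot genes Os01g0600900 (1.79) and Os12g0291100 (3.71), whose part in the members' values was not tested. OsRR9 and OsRR10 are close copies whose reads may not be counted apart. Groups of 3 libraries are too small for a test of single outlying libraries, so none was made.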

How the results depend on the processing

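Of the members' fold changes recomputed under another setting, 641 kept their direction and their side of the call, 12 changed sign, 3 newly passed and 2 no longer passed. In the comparison of OE1 with TNG67 at 150 mM NaCl, total-count scaling called 1 member, OsRR3, and leaving out a library gave 0 to 1. With no fold change limit, 3 members were called at 150 mM NaCl, 6 at 0 mM NaCl and 1 for salt in OE1, and 6419, 5493, 9667 and 13589 of all genes for OE1 against TNG67 at 150 and 0 mM NaCl and for salt in OE1 and TNG67, where the limit left 1478, 1311, 3115 and 4804. For the difference of the OE1 effects, 2833 genes were called in all, and 1765 to 3432 with 1 library left out, the lowest without replicate 1 of unsalted TNG67 and then of unsalted OE1 (1805), while the members called were 5 throughout. Salt in TNG67 called 4 to 5 members with 1 library left out.

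The values that changed sign belonged to members that had not passed. For OE1 over TNG67 at 150 mM NaCl, OsRR1 was 0.00 and became 0.023 with edgeR, 0.021 with DESeq2 and 0.079 with total-count scaling. With 1 library left out OsRR1 ranged from -0.27 to 0.18 and OsRR6 from -0.36 to 0.025. For salt in OE1, OsRR10 ranged from -0.067 to 0.18 and OsRR1 from -0.10 to 0.35 in these fits. The cause was not tested. Total-count scaling moved the median of all genes by at most 0.08 in any comparison.

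Replicate numbers did not pair the libraries, since same-numbered libraries had correlations of -0.155 to 0.0383 between their deviations from the group means. With a replicate block, 5 members were called for salt in TNG67 and 5 in the difference of the OE1 effects, with 2311 genes in all in that difference, and the block changed no call of a member. The 6-library fits and the removal of the fold change limit do not apply to the difference. Depth limits OsRR1 most, with 32 to 74 reads per library and the widest intervals among the members.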
